A study of Homo sapiens with 6 samples.

Results

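The FOX, SOX, GATA and KLF genes encode 4 families of DNA-binding transcription factors, and 90 of the 62703 genes in the deposited table carry a symbol of these families. A gene was taken as a member when its symbol was a FOX letter from A to S with a number and at most 1 further letter, or SOX, GATA or KLF with a number. This gave 47 FOX, 19 SOX, 6 GATA and 18 KLF genes. The cells were HGC-27, a line derived from human gastric cancer, kept in RPMI 1640 with 10% fetal bovine serum. Cells carrying an shRNA against GXYLT2 (shGXYLT2, genotype label GXYLT2 knockdown) were compared with cells carrying a control shRNA (shControl, genotype label WT), with 3 libraries in each group. The knockdown cells are described as a stable transfectant of the line; the labels do not say whether it is a single clone, which promoter drives the shRNA, or whether the replicates came from separate cultures. P-values therefore measure only the spread between these libraries, which may be technical.

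Forkhead (FOX) factors bind DNA through a winged helix, SOX factors bend it with an HMG box, GATA factors read the sequence GATA with zinc fingers, and Krüppel-like factors (KLF) bind GC-rich and CACCC boxes with a row of zinc fingers at the carboxy terminus. In the gut, GATA4 and GATA6, FOXA1 and FOXA2, SOX2 and SOX9, and KLF4 and KLF5 are known for setting the identity and renewal of the epithelium. FOXO factors are held in the cytoplasm by AKT and SGK kinases and 14-3-3 proteins, and FOXM1 drives genes of mitosis.

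Estimated counts totalled 24898425, 24674750 and 22188073 in shGXYLT2 replicates 1 to 3 and 17512826, 17291138 and 22540099 in shControl replicates 1 to 3. The target itself, GXYLT2, an enzyme that xylosylates O-glucose on EGF repeats, had 5.27, 6.27 and 5.34 CPM in shGXYLT2 libraries against 20.7, 22.8 and 20.2 CPM in shControl libraries. CPM here are counts scaled to the library size after TMM factors. The GXYLT2 level was 73.5% lower in shGXYLT2 (two-sided p of an exact permutation test = 0.1, the lowest value possible with 3 libraries a group; log2 fold change -1.91, SE 0.109, edgeR adjusted p = 6.3e-10). Among 12 gastric and epithelial markers, MUC6 averaged 4.22 CPM in shGXYLT2 and 2.05 CPM in shControl, CDH1 averaged 2.33 CPM in shGXYLT2 and 2.92 CPM in shControl, EPCAM averaged 0.109 CPM in shGXYLT2 and 0.151 CPM in shControl, and TFF1, KRT20 and MUC5AC were at 0 counts in all 6 libraries. Of 12 mesenchymal and fibroblast markers 11 could be tested, 4 rose and 3 fell (63.6%, beside 12.2% of all tested genes), and their summed level was 5312 to 5690 CPM in shGXYLT2 and 5554 to 5912 CPM in shControl; VIM averaged 2526 CPM in shGXYLT2 and 2669 CPM in shControl, and COL3A1 1673 CPM in shGXYLT2 and 1581 CPM in shControl. The part of these markers in the results below was not tested. Summed levels of 10 leukocyte markers were 4.47 to 4.99 CPM in shGXYLT2 and 4.02 to 5.85 CPM in shControl, with MS4A1, LAPTM5 and CD3E at 0, and those of 10 endothelial markers were 16.3 to 22.5 CPM in shGXYLT2 and 21.6 to 23.7 CPM in shControl, with KDR, CDH5 and PECAM1 at 0.

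Of the 90 members, 50 had enough counts to be tested, 19 had a few counts but not enough, and 21 had 0 counts in every library. Among the tested members 2 rose and 5 fell in shGXYLT2, and 43 did not pass (quasi-likelihood test of edgeR, with p adjusted over 15693 genes and called below 0.05). The rises were those of KLF4 and SOX6, and the falls those of KLF6, KLF13, KLF5, FOXN2 and FOXO3B. The 7 called members are 14% of the 50, beside 12.2% called among all tested genes, so the share is near the background; rises were 5.31% and falls 6.84% of all tested genes. The median log2 fold change was 0.006 over the tested members and -0.006 over all tested genes, and the median absolute change was 0.18 and 0.14. Groups of 3 libraries did not overlap for 23 members (46.0%), 10 higher and 13 lower in shGXYLT2, beside 30.4% of all tested genes. With offsets for GC content and gene length, an alternative chosen after seeing the data, 8 members rose and 8 fell. Calls over all tested genes were also more frequent in that fit, at 19.8%. Without shControl replicate 3 the counts were 1 rise and 2 falls, and without shControl replicate 1, shControl replicate 2, shGXYLT2 replicate 2 or shGXYLT2 replicate 3 there were 3 falls.

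**Figure D1:**
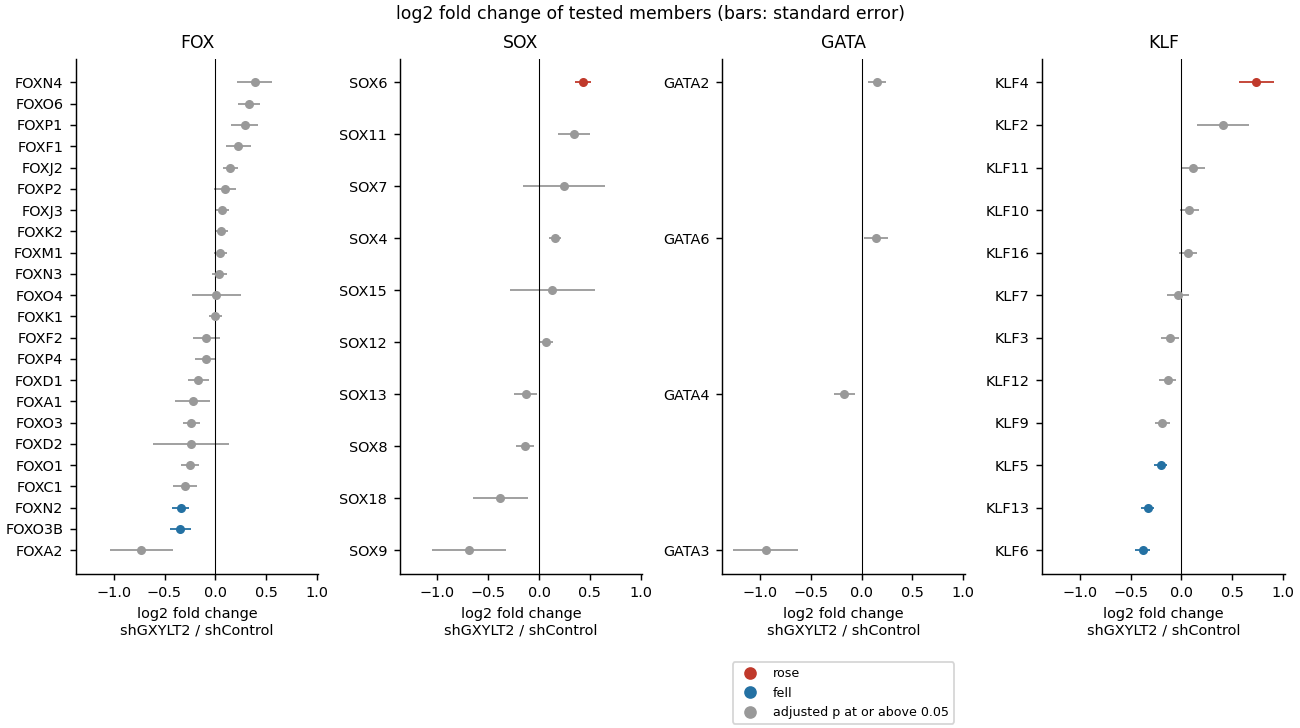
Log2 fold change (shGXYLT2 over shControl, x axis) of tested members, 1 row per gene and 1 panel per family; points are estimates of the edgeR fit and bars their standard errors. The called members stand at 0.74 (KLF4) and 0.43 (SOX6) on the right and between -0.38 (KLF6) and -0.20 (KLF5) on the left.

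Levels were compared between genes as CPM per kilobase of the gene length the authors deposited, whose definition is not given. For some genes it was shorter than the longest annotated 3′ UTR. SOX6, FOXN3 and KLF16 had lengths of 2656, 2542 and 1134 beside 3′ UTRs of 6360, 6242 and 2060 bases. Their levels per kilobase may therefore be too high, and the order of genes below depends on these lengths. FOXM1, the mitotic forkhead factor, was the highest of all members, at 53.4 CPM per kilobase in shGXYLT2 and 51.6 in shControl. KLF16, a KLF of the GC-box-binding repressor group, followed at 35.6 CPM per kilobase in shGXYLT2 and 34.1 in shControl. Next came FOXN3, a forkhead repressor (29.6 in shGXYLT2 and 28.8 in shControl), KLF5 (23.7 in shGXYLT2 and 27.3 in shControl) and FOXJ3 (21.4 in shGXYLT2 and 20.4 in shControl). Within the SOX family SOX12 (17.3 in shGXYLT2 and 16.5 in shControl), SOX6 (15.7 in shGXYLT2 and 11.6 in shControl) and SOX4 (15.2 in shGXYLT2 and 13.6 in shControl) lay close together, and SOX4 stood above SOX6 in shControl but below it in shGXYLT2. That order was not tested and rests on the deposited lengths. In CPM without length, SOX4 averaged 73.9 in shGXYLT2 and 66.3 in shControl. SOX6 was lower in both groups, at 41.6 in shGXYLT2 and 30.8 in shControl. GATA2 led its family at 6.53 CPM per kilobase in shGXYLT2 and 5.89 in shControl, above GATA4 (2.98 in shGXYLT2 and 3.35 in shControl) and GATA6 (2.29 in shGXYLT2 and 2.07 in shControl).

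**Figure D2:**
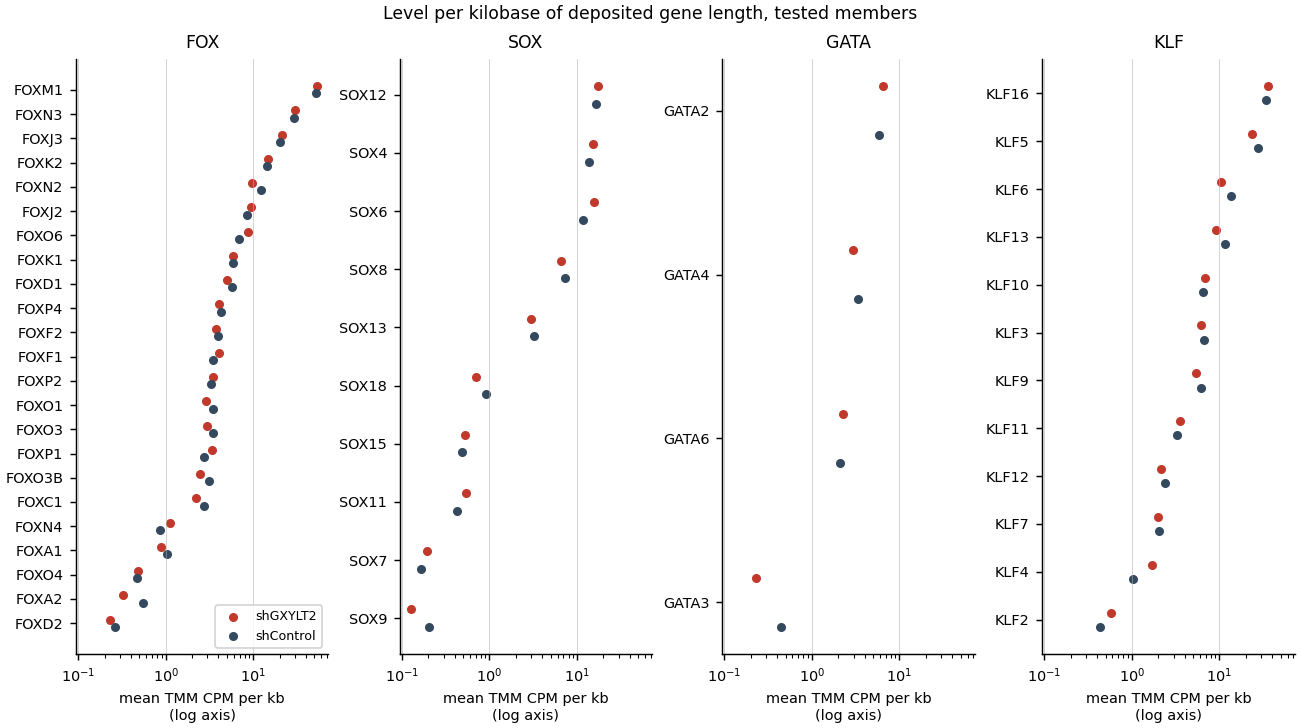
Mean level of tested members in CPM per kilobase of deposited length (log x axis), with shGXYLT2 in red and shControl in dark blue, 1 panel per family. FOXM1 is highest, at 53.4 in shGXYLT2 and 51.6 in shControl, and in shGXYLT2 SOX9 is lowest, at 0.128, with 0.204 in shControl.

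Of 12 tested KLF genes 4 were called (33.3%, beside 12.2% of all tested genes): KLF4 rose and KLF6, KLF13 and KLF5 fell. KLF4, a factor of epithelial differentiation and of reprogramming to pluripotency, lies on the minus strand of chromosome 9 (chr9:107484852-107490482, GRCh38). It had 132, 113 and 116 counts in shGXYLT2 libraries and 55, 60 and 56 in shControl libraries, which are 5.27, 4.60 and 5.21 CPM against 3.16, 3.52 and 2.46 CPM. All 3 shGXYLT2 libraries lay above all 3 shControl libraries. KLF4 rose 1.67-fold (log2 fold change 0.74, SE 0.17, edgeR adjusted p = 0.0073), and it was 0.59 with an adjusted p of 0.066 without shControl replicate 3, its lowest library.

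KLF6, a widely expressed factor known as a tumour suppressor, lies on the minus strand of chromosome 10 (chr10:3775996-3785281). It had 45.4, 48.3 and 51.2 CPM in shGXYLT2 libraries against 64.3, 66.3 and 58.5 CPM in shControl libraries, with no overlap. Its mean fell 1.30-fold, to 48.3 ± 2.88 CPM in shGXYLT2, against 63.0 ± 4.05 CPM in shControl (SD, n = 3 each; edgeR adjusted p = 0.0014). KLF13, a repressor that recruits SIN3A, lies on the plus strand of chromosome 15 (chr15:31326855-31435665). It had 63.8, 59.2 and 65.2 CPM in shGXYLT2 libraries against 79.3, 79.3 and 78.3 CPM in shControl libraries, again without overlap. KLF13 fell by 0.33 on the log2 scale (SE 0.0639, edgeR adjusted p = 0.0017). Both calls, of KLF6 and KLF13, were kept under all 15 alternative settings, with adjusted p up to 0.019 for KLF6 and 0.017 for KLF13.

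KLF5, which sustains proliferation of gut epithelium, lies on the plus strand of chromosome 13 (chr13:73054976-73077542). It had 83.6, 80.9 and 73.4 CPM in shGXYLT2 libraries against 93.8, 90.6 and 90.0 CPM in shControl libraries. The groups did not overlap, but KLF5 only just passed (log2 fold change -0.20, SE 0.065, edgeR adjusted p = 0.046). It did not pass in any fit that left out a library, with adjusted p of 0.052, 0.058 and 0.059 without shGXYLT2 replicates 1, 2 and 3 and 0.21, 0.13 and 0.12 without shControl replicates 1, 2 and 3. KLF5 passed with DESeq2 (0.046) but not with limma-voom (adjusted p = 0.054).

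Other KLF genes did not pass. KLF9, a glucocorticoid-inducible repressor, had 30.0, 27.9 and 27.3 CPM in shGXYLT2 against 32.0, 31.2 and 33.8 CPM in shControl (log2 fold change -0.19, edgeR adjusted p = 0.13). The TGF-beta-inducible repressors KLF10 and KLF11 had log2 fold changes of 0.08 and 0.11, and KLF16, with 38.8, 35.7 and 46.8 CPM in shGXYLT2 against 36.3, 41.4 and 38.2 CPM in shControl, had 0.06. KLF3, which recruits the corepressor CTBP, KLF12 and KLF7 had -0.11, -0.13 and -0.04. KLF2, the flow-responsive factor of endothelium, was low, at 1.61 ± 0.15 CPM in shGXYLT2 and 1.22 ± 0.164 CPM in shControl (SD, n = 3 each; edgeR adjusted p = 0.35). Summed over the 18 KLF genes, the level was 381, 372 and 373 CPM in shGXYLT2 libraries and 424, 424 and 417 CPM in shControl libraries. KLF5, KLF6 and KLF13 together made up -43.1 of the mean difference of -46.4 CPM, while KLF4 contributed 1.98 CPM in the other direction.

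The promoters of the called KLF genes are shown because KLF factors bind GC boxes, and members of the family moved in opposite directions. Each is 300 bases, from 250 before to 50 after the RefSeq start on GRCh38.p14, printed 5′ to 3′ on the strand of the gene, and capitals mark GGGCGG or its reverse complement CCGCCC. They span chr9:107489720-107490019 (minus strand) for KLF4, chr10:3785160-3785459 (minus strand) for KLF6, chr15:31326585-31326884 (plus strand) for KLF13 and chr13:73054726-73055025 (plus strand) for KLF5.
KLF4: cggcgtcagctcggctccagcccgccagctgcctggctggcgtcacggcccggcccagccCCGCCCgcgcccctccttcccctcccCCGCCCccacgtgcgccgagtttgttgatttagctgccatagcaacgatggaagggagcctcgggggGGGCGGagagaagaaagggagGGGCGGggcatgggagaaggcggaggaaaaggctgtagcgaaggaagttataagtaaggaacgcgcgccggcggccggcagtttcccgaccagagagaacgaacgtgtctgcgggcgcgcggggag
KLF6: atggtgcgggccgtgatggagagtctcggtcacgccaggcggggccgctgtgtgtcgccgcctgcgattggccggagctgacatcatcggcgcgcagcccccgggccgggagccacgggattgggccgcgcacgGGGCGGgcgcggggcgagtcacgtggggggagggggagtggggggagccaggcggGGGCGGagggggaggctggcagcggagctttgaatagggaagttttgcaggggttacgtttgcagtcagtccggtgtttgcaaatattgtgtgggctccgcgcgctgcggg
KLF13: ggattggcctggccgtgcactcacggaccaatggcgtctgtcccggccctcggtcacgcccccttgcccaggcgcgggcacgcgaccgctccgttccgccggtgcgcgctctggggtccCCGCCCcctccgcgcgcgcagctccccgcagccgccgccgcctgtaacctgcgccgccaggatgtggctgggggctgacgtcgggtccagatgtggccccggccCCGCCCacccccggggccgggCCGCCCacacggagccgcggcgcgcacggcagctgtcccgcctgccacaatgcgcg
KLF5: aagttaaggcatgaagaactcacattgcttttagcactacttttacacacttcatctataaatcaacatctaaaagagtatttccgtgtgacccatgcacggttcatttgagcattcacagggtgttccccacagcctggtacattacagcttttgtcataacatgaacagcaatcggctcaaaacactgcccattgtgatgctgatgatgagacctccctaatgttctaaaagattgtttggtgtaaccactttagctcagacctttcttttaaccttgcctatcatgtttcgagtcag
KLF4, which rose, held 4 such matches. KLF6 and KLF13, which fell, held 2 and 3. The printed KLF5 window, a gene which also fell, held 0 and had a GC content of 40.7%, against 69.0% to 78.3% in the other 3. That window contains the upstream end of the annotated KLF5 gene (chr13:73054976). Other starts of these genes were not examined, so the values describe the printed windows only. The GC box was present in 25 of the 36 tested members with a promoter in the table (69.4%) and in 44.6% of all 27305 promoters. These promoters were not limited to the 15693 tested genes, so the shares come from unlike sets and are not read as a trait of the families. The box CACCC (or GGGTG), which can share bases with a GC box, was in 58.3% of these members and in 58.9% of all promoters. A match is a description of letters, not of binding.

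SOX6 was the called SOX gene among 10 tested (10.0%, beside 12.2% of all tested genes). It belongs to the SOXD group, which has no activation domain of its own and works beside SOX9 in cartilage, and it spans the minus strand of chromosome 11 (chr11:15966449-16739591). It had 43.0, 43.4 and 38.5 CPM in shGXYLT2 libraries against 28.7, 30.8 and 32.9 CPM in shControl libraries. The groups were apart, and SOX6 rose 1.35-fold, to 41.6 ± 2.73 CPM in shGXYLT2, against 30.8 ± 2.09 CPM in shControl (SD, n = 3 each; edgeR adjusted p = 0.0011). The call held under all 15 alternative settings, with adjusted p up to 0.015. C11orf58, which overlaps it on the other strand, averaged 235 CPM in shGXYLT2 and 228 CPM in shControl (edgeR adjusted p = 0.68), so reads of the 2 genes cannot be told apart where they overlap if the counting ignored strand. The SOX6 promoter (chr11:16738428-16738727, minus strand, GRCh38.p14), shown as that of the risen SOX gene, holds 1 GC box in capitals.
SOX6: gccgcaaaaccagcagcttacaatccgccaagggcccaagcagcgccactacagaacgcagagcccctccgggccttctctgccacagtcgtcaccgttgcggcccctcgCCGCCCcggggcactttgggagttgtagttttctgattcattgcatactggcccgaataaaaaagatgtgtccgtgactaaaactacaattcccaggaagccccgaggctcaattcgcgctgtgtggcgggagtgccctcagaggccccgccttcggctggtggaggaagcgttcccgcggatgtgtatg
The SOXC factors, which act in progenitor and neural cells, all had higher estimates in shGXYLT2. SOX4 had 73.6, 73.7 and 74.4 CPM in shGXYLT2 against 68.8, 65.1 and 65.1 CPM in shControl (log2 fold change 0.16, edgeR adjusted p = 0.11). SOX11 averaged 4.91 CPM in shGXYLT2 and 3.85 CPM in shControl (adjusted p = 0.17), and SOX12 had 78.9, 74.8 and 88.9 CPM in shGXYLT2 against 76.4, 79.7 and 74.9 CPM in shControl (adjusted p = 0.58). Of these 3, SOX4 and SOX12 passed with GC content and length offsets. The SOXE factor SOX8 averaged 20.5 CPM in shGXYLT2 and 22.5 CPM in shControl (adjusted p = 0.35). SOX9, the SOXE factor of cartilage and intestinal crypts, was near the limit of detection, at 0.400, 0.570 and 0.539 CPM in shGXYLT2 and 0.747, 0.644 and 1.012 CPM in shControl (edgeR adjusted p = 0.25). The summed SOX level was 234, 229 and 242 CPM in shGXYLT2 libraries and 213, 218 and 215 CPM in shControl libraries, and SOX6 made up 10.8 of the mean difference of 19.8 CPM.

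**Figure D3:**
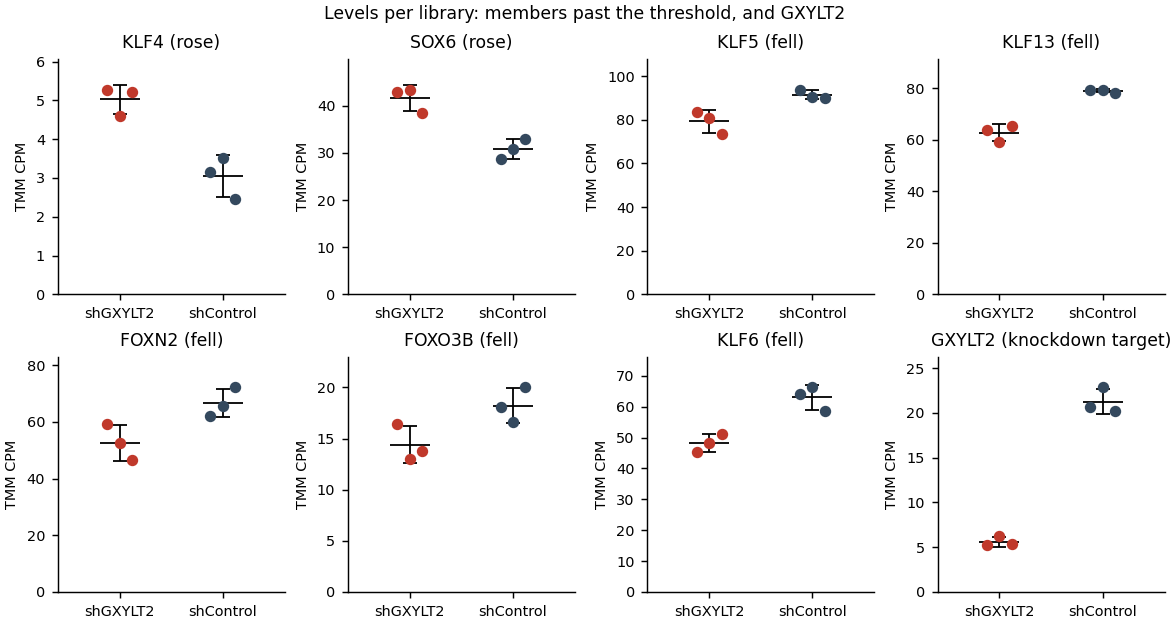
TMM-scaled CPM of the 7 called members and of GXYLT2 in each library, with shGXYLT2 (red) left of shControl (dark blue); long lines are means and bars their SD over 3 libraries, and each y axis starts at 0. The groups do not overlap in any of the 8 panels, and the narrowest gap is that of FOXO3B, 16.5 CPM in the highest shGXYLT2 library and 16.6 CPM in the lowest shControl library.

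In the FOX family 2 of 24 tested members fell and 0 rose (8.33% called, beside 12.2% of all tested genes). DESeq2 and limma-voom also gave 0 rises. At an unadjusted edgeR p below 0.05 there were 11 FOX members, 5 with a higher and 6 with a lower estimate, beside 25.5% of all tested genes. FOXN2, a forkhead factor of the FOXN group, lies on the plus strand of chromosome 2 (chr2:48314637-48379294). It had 59.1, 52.4 and 46.4 CPM in shGXYLT2 libraries against 62.2, 65.6 and 72.1 CPM in shControl libraries. The libraries within each group were spread widely but the groups did not overlap. FOXN2 fell by 0.34 on the log2 scale (SE 0.0829, edgeR adjusted p = 0.010), with an adjusted p of 0.058 without shGXYLT2 replicate 2 and 0.10 without shControl replicate 3.

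The FOXO factors, which turn on genes of stress resistance and cell-cycle arrest when growth signals are low, had 1 called member, FOXO3B, and the others did not pass. FOXO3B had 16.5, 13.03 and 13.7 CPM in shGXYLT2 libraries against 18.05, 16.6 and 20.01 CPM in shControl libraries (log2 fold change -0.34, SE 0.106, edgeR adjusted p = 0.041). Its value is uncertain: GENCODE lists it as a processed pseudogene on the minus strand of chromosome 17 (chr17:18670946-18672873), inside ZNF286B, and it is a near copy of FOXO3 whose reads the counting could split. The deposited FOXO3B length, 5859, is longer than that span, so the counted gene model may differ from it. ZNF286B, on the same strand, averaged 8.16 CPM in shGXYLT2 and 9.18 CPM in shControl in its tested entry (edgeR adjusted p = 0.54). The FOXO3B call was lost in 5 of the 6 fits that left out a library. Its adjusted p was 0.13 and 0.067 without shGXYLT2 replicates 2 and 3 and 0.11, 0.052 and 0.24 without shControl replicates 1, 2 and 3. It was also lost with DESeq2 (adjusted p = 0.087) and limma-voom (0.051). FOXO3 itself had 21.4, 22.5 and 20.2 CPM in shGXYLT2 against 24.9, 26.1 and 24.6 CPM in shControl (log2 fold change -0.24, edgeR adjusted p = 0.068). Added together, FOXO3 and FOXO3B had 37.8, 35.5 and 34.0 CPM in shGXYLT2 and 43.0, 42.7 and 44.6 CPM in shControl. FOXO1 had 18.0, 15.5 and 17.1 CPM in shGXYLT2 against 19.9, 20.1 and 20.1 CPM in shControl, without overlap (log2 fold change -0.25, edgeR adjusted p = 0.074). FOXO6, known mainly from brain, had a higher estimate, with 12.03, 12.2 and 14.5 CPM in shGXYLT2 against 10.1, 10.6 and 10.2 CPM in shControl (log2 fold change 0.33, edgeR adjusted p = 0.056). FOXO4 averaged 1.74 CPM in shGXYLT2 and 1.72 CPM in shControl (adjusted p = 0.98). FOXO1, FOXO3 and FOXO6 passed with GC content and length offsets, FOXO3 also without shGXYLT2 replicate 2, and FOXO6 also with upper-quartile factors or no filter.

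FOXM1, which drives mitotic genes, had 181, 174 and 201 CPM in shGXYLT2 libraries against 180, 185 and 173 CPM in shControl libraries, so the groups overlapped. ITFG2 and RHNO1 overlap it on the other strand. Its log2 fold change was 0.05 with a 95% interval of -0.07 to 0.17 (edgeR adjusted p = 0.68). FOXK1 and FOXK2, repressors of autophagy genes, had log2 fold changes of 0.00 and 0.06, with 95% intervals of -0.12 to 0.12 and -0.07 to 0.18. FOXN3 had 76.7, 81.8 and 67.6 CPM in shGXYLT2 against 72.8, 71.8 and 75.3 CPM in shControl, and FOXJ3 had 110, 118 and 103 CPM in shGXYLT2 against 105, 109.9 and 101 CPM in shControl, so both overlapped. The pioneer factors of endoderm were low: FOXA1 averaged 3.11 ± 0.0766 CPM in shGXYLT2 and 3.65 ± 0.569 CPM in shControl, with an edgeR adjusted p of 0.47. FOXA2 averaged 0.831 ± 0.222 CPM in shGXYLT2 and 1.39 ± 0.311 CPM in shControl (SD of 3 libraries), with an adjusted p of 0.14. The mesenchymal factors of gut FOXF1 and FOXF2 averaged 14.4 and 9.12 CPM in shGXYLT2 and 12.2 and 9.61 CPM in shControl. FOXC1, a factor of mesoderm and vessels, averaged 8.89 CPM in shGXYLT2 and 10.9 CPM in shControl (adjusted p = 0.11).

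Of the 4 tested GATA genes 0 passed with edgeR, DESeq2 or limma-voom. An unadjusted edgeR p below 0.05 was found for 1 of the 4, beside 25.5% of all tested genes. GATA2, a factor of blood and endothelial lineages, had 26.2, 22.6 and 25.7 CPM in shGXYLT2 against 22.9, 22.7 and 21.6 CPM in shControl, so the groups overlapped. GATA4, a factor of heart, endoderm and stomach, had 10.1, 9.89 and 10.51 CPM in shGXYLT2 against 11.96, 11.7 and 10.7 CPM in shControl (log2 fold change -0.17, edgeR adjusted p = 0.34). GATA6, its partner in gut and heart, had 7.95, 8.14 and 8.80 CPM in shGXYLT2 against 7.41, 7.62 and 7.48 CPM in shControl (log2 fold change 0.14, adjusted p = 0.49). The 2 paralogs thus had estimates of opposite sign, and their groups did not overlap, but neither passed and the difference between them was not tested. GATA3, of T cells and luminal breast, had 16, 15 and 19 counts in shGXYLT2 and 23, 30 and 23 counts in shControl, or 0.639, 0.611 and 0.853 CPM against 1.32, 1.76 and 1.012 CPM (log2 fold change -0.94, SE 0.321, edgeR adjusted p = 0.062). GATA2 and GATA3 passed with GC content and length offsets.

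Members with 0 counts in all 6 libraries included the blood factors GATA1 and KLF1, the gut factor GATA5, the endoderm factors FOXA3 and SOX17, the neural factors SOX1, SOX3 and SOX14, and SOX5, the partner of SOX6. The others were FOXB1, FOXD3, FOXE1, FOXI1, FOXI2, FOXI3, FOXL2, FOXL3, FOXQ1, FOXR1, FOXR2 and KLF15. SOX2, the pluripotency and foregut factor, had 2, 5 and 2 counts in shGXYLT2 libraries and 2, 5 and 0 in shControl libraries and was not tested. Also below the filter were FOXB2, FOXC2, FOXD4, FOXE3, FOXH1, FOXJ1, FOXL1, FOXN1, FOXO1B, FOXP3, FOXS1, KLF8, KLF14, KLF17, KLF18, SOX10, SOX21 and SOX30, with at most 14.2 counts in a library. At the edge of the filter, FOXD4 was left out with 40.6 counts over all libraries and SOX15 was tested with 69.

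Lists of partners, regulators and target genes, textbook lists chosen with earlier results of these data known, were read beside the members by counts alone. Among 23 tested genes that FOXO factors can activate, 5 rose and 2 fell (30.4%, beside 12.2% of all tested genes), with a median log2 fold change of 0.135. SESN3, which restrains mTORC1, had 44.7, 49.6 and 43.1 CPM in shGXYLT2 against 30.0, 27.6 and 35.2 CPM in shControl (log2 fold change 0.56, SE 0.0881, edgeR adjusted p = 2.9e-04). Catalase (CAT), which breaks down hydrogen peroxide, had 50.6, 47.4 and 49.1 CPM in shGXYLT2 against 37.8, 40.1 and 36.7 CPM in shControl (log2 fold change 0.36, adjusted p = 0.0018). CITED2, a CBP/p300-binding regulator, rose by 0.39 on the log2 scale (edgeR adjusted p = 0.0079; 0.069 without shControl replicate 3). The other risen genes, named after their values were seen, were BCL2L11, which promotes apoptosis, at 0.38 (adjusted p = 0.012; 0.088, 0.051, 0.064 and 0.051 without shGXYLT2 replicate 1 and shControl replicates 1, 2 and 3), and CDKN1B, the cell-cycle inhibitor p27, at 0.19 (adjusted p = 0.049; 0.13, 0.21, 0.20 and 0.079 without the same libraries). TXNIP, an inhibitor of thioredoxin, fell, with 23.8, 27.0 and 38.5 CPM in shGXYLT2 against 46.6, 45.1 and 44.8 CPM in shControl (edgeR adjusted p = 0.044); it passed without shGXYLT2 replicate 1 or 3, but had 0.15, 0.16, 0.082 and 0.10 without shGXYLT2 replicate 2 and shControl replicates 1, 2 and 3. GADD45A, a DNA damage-inducible gene, fell by 0.30 (adjusted p = 0.031; 0.088, 0.15 and 0.13 without shGXYLT2 replicate 2 and shControl replicates 2 and 3). The rises in this list numbered 3, 3 and 2 without shGXYLT2 replicate 1, shControl replicate 1 and shControl replicate 3, and 8 with no filter; falls were 1 without shControl replicate 1 and 0 without shGXYLT2 replicate 2 or shControl replicate 2 or 3. The CDKN1B call was also lost with RLE size factors (adjusted p = 0.052), DESeq2 (0.05), limma-voom (0.055), a fit without robust (0.051), the replicate block (0.11) and GC content and length offsets (0.11). That of GADD45A was lost with DESeq2 (0.063) and the replicate block (0.059). TXNIP did not pass with upper-quartile factors (0.092) or with GC content and length offsets (0.14). FOXO1 and FOXO3, listed above, did not pass.

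Of 21 tested regulators of FOXO factors 1 rose and 1 fell (9.52%, beside 12.2% of all tested genes). SGK1, a kinase that phosphorylates FOXO3, had 33.9, 28.8 and 27.8 CPM in shGXYLT2 against 20.5, 24.5 and 20.01 CPM in shControl (log2 fold change 0.48, SE 0.097, edgeR adjusted p = 0.0025). YWHAQ, the theta 14-3-3 protein, had 443, 453 and 442 CPM in shGXYLT2 against 562, 593 and 523 CPM in shControl (log2 fold change -0.33, adjusted p = 7.7e-04). In neither gene did the groups overlap.

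Of 24 tested FOXM1 targets of G2 and mitosis 0 passed with edgeR, DESeq2 or limma-voom, and the median log2 fold change was 0.009. An unadjusted edgeR p below 0.05 was found for 5 of the 24, beside 25.5% of all tested genes. The most abundant, TOP2A, averaged 992 CPM in shGXYLT2 and 1051 CPM in shControl. TPX2 averaged 439 CPM in shGXYLT2 and 425 CPM in shControl. The SP factors, zinc-finger relatives of the KLF family that bind the same GC boxes, also had 0 of 7 past the threshold with these 3 tools and 0 at an unadjusted p below 0.05; SP1 averaged 166 CPM in shGXYLT2 and 172 CPM in shControl, and SP3 averaged 138 CPM in shGXYLT2 and 139 CPM in shControl. Among 17 tested KLF corepressors and regulators 1 rose and 1 fell (11.8%, beside 12.2% of all tested genes). MAP2K5, the kinase upstream of ERK5, rose by 0.37 on the log2 scale (edgeR adjusted p = 0.0077; 0.058 without shControl replicate 3). MEF2D, a MADS-box factor, fell by 0.28 (adjusted p = 0.021; 0.076, 0.13, 0.060 and 0.066 without shGXYLT2 replicate 1 and shControl replicates 1, 2 and 3).

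Among 19 tested KLF target genes 2 rose and 4 fell (31.6%, beside 12.2%), with a median of -0.174. LAMA1, a laminin chain that KLF4 and KLF5 regulate, had 34.7, 34.3 and 36.8 CPM in shGXYLT2 against 66.3, 59.4 and 69.0 CPM in shControl (log2 fold change -0.88, SE 0.0729, edgeR adjusted p = 9.4e-08). IGFBP5, a binding protein for insulin-like growth factors, had 60.9, 58.2 and 67.3 CPM in shGXYLT2 against 36.6, 35.9 and 35.7 CPM in shControl (log2 fold change 0.78, adjusted p = 3.7e-07). S1PR1, the sphingosine-1-phosphate receptor that KLF2 activates in T cells, rose to 3.15 ± 0.518 CPM in shGXYLT2, against 1.29 ± 0.17 CPM in shControl (SD, n = 3 each; edgeR adjusted p = 7.4e-04). BTG2, an antiproliferative gene, fell by 0.44 on the log2 scale (adjusted p = 0.034), a call kept in 1 of the 6 fits that left out a library, that without shGXYLT2 replicate 3; without the other libraries its adjusted p ran from 0.079 to 0.15. EGR1, an immediate early gene, averaged 1.53 CPM in shGXYLT2 and 2.49 CPM in shControl (adjusted p = 0.042), and it too passed only without shGXYLT2 replicate 3 among these fits (0.080 to 0.19 without the others). BTG2 and EGR1 were also lost with DESeq2 (adjusted p = 0.1 and 0.17) and with the replicate block (0.052 and 0.059). EGR1 was lost with no filter too (0.06). TXNIP is on this list as well. The falls numbered 2 without shGXYLT2 replicate 1, 7 without shGXYLT2 replicate 3, and 1 without shGXYLT2 replicate 2 or any of the 3 shControl libraries.

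Of 12 tested GATA cofactors 0 passed with edgeR or limma-voom and 1 with DESeq2. An unadjusted edgeR p below 0.05 was found for 6 of the 12, beside 25.5% of all tested genes. With upper-quartile factors 2 rose, with no filter 1, and with GC content and length offsets 4. Without shGXYLT2 replicate 3 there were 1 rise and 1 fall. MED1 averaged 186 CPM in shGXYLT2 and 191 CPM in shControl, and LDB1 187 CPM in both groups. Of 24 gastric and intestinal lineage genes 6 could be tested and 9 had 0 counts. Among the 6 tested 1 rose and 0 fell (16.7%, beside 12.2% of all tested genes). MUC6, a mucin of gastric glands, had 4.28, 5.29 and 3.10 CPM in shGXYLT2 against 1.95, 1.88 and 2.33 CPM in shControl (log2 fold change 1.03, SE 0.21, edgeR adjusted p = 0.0029). Among 11 tested SOX partners and pluripotency factors 0 rose and 2 fell (18.2%, beside 12.2% of all tested genes). NES, the progenitor filament nestin, fell to 59.0 CPM in shGXYLT2, against 76.5 CPM in shControl (edgeR adjusted p = 6.9e-04). LIN28B, an inhibitor of let-7 processing, fell by 0.30 on the log2 scale (adjusted p = 0.036), a call kept in the fit without shGXYLT2 replicate 2 and lost without each other library (0.065 to 0.15). Among 7 tested cartilage and matrix genes that SOX9 activates 1 rose and 1 fell (28.6%, beside 12.2% of all tested genes). HAPLN1, a link protein of proteoglycans, rose to 138 ± 9.86 CPM in shGXYLT2, against 110 ± 4.02 CPM in shControl (SD, n = 3 each; edgeR adjusted p = 0.0022). COL11A2, a minor collagen of cartilage, fell by 0.88 on the log2 scale from a low level (edgeR adjusted p = 0.033). Its adjusted p was 0.077, 0.080, 0.13 and 0.13 without shGXYLT2 replicates 2 and 3 and shControl replicates 2 and 3. With DESeq2 it was 0.13 for COL11A2 and 0.076 for LIN28B, which was also lost with the replicate block (0.05).

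**Figure D4:**
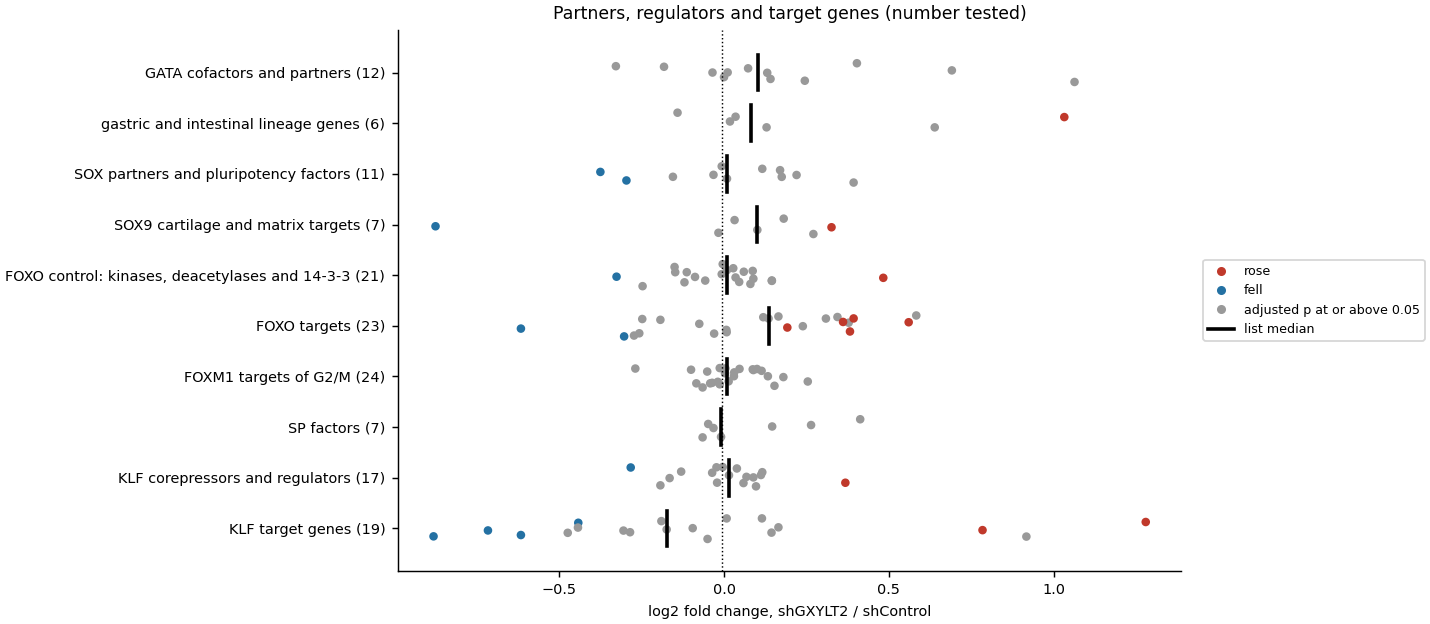
Log2 fold change (shGXYLT2 over shControl, x axis) of each tested gene in 10 lists of partners, regulators and targets; red points rose, blue points fell, grey points did not pass, black bars are list medians and the dotted line is the median of all tested genes. The points of the FOXM1 target list and the SP factor list are all grey, while the FOXO target and KLF target lists hold 7 and 6 coloured points.

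The members were also read for the 7-base word GACTCAT in their longest annotated 3′ UTR, a word that earlier work on these data chose for its tie to the fold changes, so the counts below are no independent evidence. It was present in 7 of the 48 tested members with a searched 3′ UTR and in 9.09% of 12558 tested genes. Of all tested genes with the word 21.9% fell, against 6.35% of those without it. Among the members with the word 1 fell, KLF13, and 6 did not pass; among the 41 without it 3 fell, KLF5, KLF6 and FOXN2. The sites are shown to set KLF13 beside the carriers that did not pass, 25 bases each, 5′ to 3′ on the transcript, with the word in capitals (GENCODE release 29); SOX7, which also holds it, is not printed.
KLF13: aacccatagGACTCATagaaataat
GATA3: agccattctGACTCATatcccctat
KLF7: tgactgtttGACTCATtgactgtta
FOXN3: ggtgtcagtGACTCATggagaagaa
SOX12: tcaaaatgaGACTCATattttaaaa
FOXP2: agcgtcaggGACTCATctccattcc
Their log2 fold changes were -0.33 for KLF13, -0.94 for GATA3, -0.04 for KLF7, 0.04 for FOXN3, 0.07 for SOX12 and 0.09 for FOXP2. The word lay at base 3158 of a 3′ UTR of 5600 bases in KLF13 and at base 217 of 1180 in GATA3. The bases beside the word differed between the 6 sites.

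**Figure D5:**
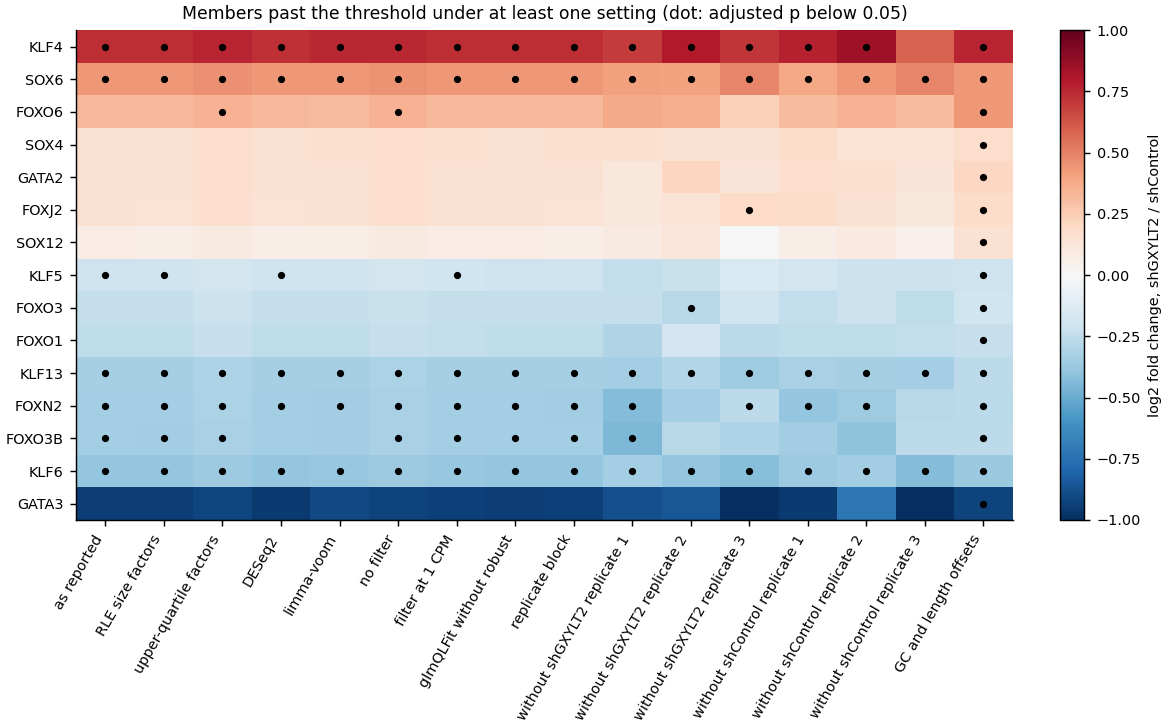
Log2 fold change (colour, shGXYLT2 over shControl) of members that passed under at least 1 setting, by gene (rows) and setting (columns); a dot marks an adjusted p below 0.05. KLF13, KLF6 and SOX6 carry a dot in every column, KLF4 in every column but that without shControl replicate 3, and each gene shown carries one in the column with GC content and length offsets.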

How the data were processed

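Messenger RNA of 6 HGC-27 libraries was prepared with an Illumina stranded ligation kit, per the labels' protocols. The tools were HISAT2, StringTie and fastp with build GRCh38.p13, per the submitters' processing notes; their versions and roles, and whether counting used strand, are not stated there. The authors deposited estimated counts per gene, not normalized (12.3% of values not whole), with a gene length column. Counts were rounded; 31562 genes had 0 counts in all libraries. The members, the lists and the rule for named genes were chosen with earlier results of these data known.

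Genes were filtered with filterByExpr, scaled by TMM and tested in a robust quasi-likelihood fit by edgeR 4.0.16 (R 4.3.3), with group as the only term; two-sided p-values had Benjamini-Hochberg adjustment across 15693 genes. DESeq2 1.42.0 and limma-voom (limma 3.58.1) were alternatives, beside other scalings, filters, a replicate block, and fits without each library. GC content and length offsets were per-library splines. GENCODE release 29 matched 58225 identifiers (92.9%); promoters are RefSeq's. On simulated counts for shGXYLT2 over shControl, over 15464 genes, 72.0% of genes changed 1.5-fold and 81.0% of those changed 2-fold were recovered. In that simulation 14 unchanged genes were called. Changes below 1.5-fold, as for every called member but KLF4, were not simulated. Chi-square per degree of freedom was 5.42 to 9.94 between shGXYLT2 libraries and 1.93 to 3.79 between shControl libraries, so none was taken as a copy. Every tested member could be named, 1 member is counted but not reported here by name, and from each list up to 3 risen and 3 fallen genes by adjusted p, or the 2 most abundant where none passed, with BCL2L11 and CDKN1B added.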

Additional observations from a re-analysis of the deposited data

How the results depend on the processing

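Across 15 alternatives 710 of 744 member values kept their side of the threshold, 21 lost and 13 gained a call. Reversals of sign were counted only for called members, and 0 were found. Estimates of members that did not pass could change sign, as for SOX15 (log2 fold change -0.314 to 0.308) and KLF7 (-0.138 to 0.076). The members that rose numbered 2 (1 to 3 with a library left out, 8 with GC content and length offsets). Those that fell numbered 5 (2 to 4 with a library left out, 3 with limma-voom, 8 with GC content and length offsets). Over all tested genes 833 rose and 1074 fell, 397 to 1038 and 563 to 1309 with a library left out, and 1591 rose with GC content and length offsets; the cause was not tested. GXYLT2 passed under all of them. Replicate numbers here are those of the sample titles, and the numbers in the deposited column names differ from them in part. Same-numbered replicates did not deviate together (correlations of -0.0192, -0.211 and -0.264), and other pairs had -0.0965 to 0.248. Deviations from a group mean constrain each other, so these values cannot show whether the libraries were paired. The replicate block gave 606 rises and 865 falls, with 2 and 4 members, and KLF5 was lost. Of 300 counts of the partner and target lists 58 moved by more than 1.5 times or changed to or from 0. Counts of 15 to 30 per library, as for GATA3, limit what low members can show.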

Other observations

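FOXH1, a nodal-signalling forkhead factor below the filter, had 0 counts in all 3 shGXYLT2 libraries and 1, 0.54 and 14.2 counts in shControl libraries, so its reads came nearly all from shControl replicate 3. It overlaps KIFC2 on the other strand, which averaged 6.27 CPM in shGXYLT2 and 7.93 CPM in shControl (edgeR adjusted p = 0.096).

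The longest transcripts of the tested members had a median GC content of 54.4%, against 47.9% over the 15108 tested genes with a value. Of the other motifs searched on both strands of the promoters, the forkhead core TAAACA was in 13.9% of the members' and 12.4% of all promoters, the SOX core AACAAT in 8.33% and 10.3%, and the GATA site AGATAA in 8.33% and 10.5%. The members with a promoter in the table numbered 36, so these shares rest on 3 to 5 promoters each. The promoters set beside them were again not limited to tested genes.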
